A study of Mus musculus with 18 samples.

Results

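The 8 genes described here encode the receptors that bind the constant part of IgG and IgE, and were taken by symbol from the 21254 genes of the deposited count table. They are the IgG receptors Fcgr1, Fcgr2b, Fcgr3 and Fcgr4, the signalling chain Fcer1g, the IgE receptor genes Fcer1a and Fcer2a, and Fcgrt, which encodes the heavy chain of the neonatal IgG receptor FcRn. Bulk RNA-seq libraries were made from 3 myeloid populations sorted from perfused mouse lungs 24 h after nebulized Pseudomonas aeruginosa LPS, a bacterial wall component, given as 12.5 mg in 5 ml PBS over 15 min. The populations were monocyte-derived macrophages (moMs, CD45+ CD11b+ MHC-II- Ly6C+), transitional interstitial macrophages (tnsIMs, MHC-II+ Ly6C+, spelled trIM in the labels) and mature interstitial macrophages (matIMs, MHC-II+ Ly6C-). WT mice were B6 Cx3cr1tm1.1(cre)Jung/J, which carry Cre under the Cx3cr1 promoter and no floxed Ezr. Ezr-KOm mice carried the same Cre with Ez fl/fl, so that ezrin, a linker of membrane and actin, is deleted in Cx3cr1-expressing cells. Both genotypes therefore carried Cre, were C57BL/6 mice aged 3 to 5 months of equal sexes, and received LPS, and no untreated group was analysed here. Other lung leukocytes also use the Cx3cr1 promoter to some extent. Each of the 6 groups had 3 libraries, 18 in all, with 16512783 to 48460995 counts a library, of which the 8 genes together took 0.234% to 0.430%.

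The receptors for IgG link antibody to phagocytes. Fcgr1, Fcgr3 and Fcgr4 are activating: each pairs with the common gamma chain Fcer1g, whose ITAM motif is phosphorylated by Src-family kinases and recruits Syk, which starts phagocytosis and cytokine release. Fcgr2b carries an ITIM in its own tail, recruits the lipid phosphatase SHIP1 (Inpp5d) and counteracts the activating receptors, so the balance between both kinds sets how a macrophage answers an immune complex. Fcer1a is the ligand-binding chain of the high-affinity IgE receptor of mast cells and basophils, Fcer2a is the low-affinity IgE receptor CD23 of B cells and some macrophages, and FcRn binds IgG in acidic endosomes and returns it to the surface instead of letting it be degraded.

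On GRCm39, as the deposited table gives positions, 6 of the 8 genes lie on chromosomes 1 and 3. Fcgr2b (170786186 to 170804116, minus strand), Fcgr4 (170846489 to 170857330, plus strand), Fcgr3 (170878743 to 170892504, minus strand), Fcer1g (171057141 to 171061934, minus strand) and Fcer1a (173048851 to 173054781, minus strand) are on chromosome 1. Fcgr1 is on chromosome 3 (96190225 to 96201285), Fcgrt on chromosome 7 (44742414 to 44753275) and Fcer2a on chromosome 8 (3731737 to 3744175), each on the minus strand. The pair most alike was Fcgr2b and Fcgr3, the inhibitory and an activating receptor, whose coding sequences were identical at 661 of 777 aligned bases (85.1%), against 60.5% to 66.2% for the other pairs among Fcgr1, Fcgr2b, Fcgr3, Fcgr4 and Fcer1a. Among coding stretches of 120 bases that lie within a single exon of each gene, one with the fewest differences is shown because parts of it occur in both. The capital marks the 1 base that differs. The stretch lies in an exon of Fcgr2b at chr1:170795553-170795672 and of Fcgr3 at chr1:170885264-170885383, both on the minus strand of GRCm39.

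Fcgr2b: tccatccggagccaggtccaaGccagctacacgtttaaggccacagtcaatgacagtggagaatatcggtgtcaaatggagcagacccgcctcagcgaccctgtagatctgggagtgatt

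Fcgr3: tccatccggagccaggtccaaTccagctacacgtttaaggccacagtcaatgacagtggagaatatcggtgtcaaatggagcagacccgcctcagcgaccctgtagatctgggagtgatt

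In the canonical Fcgr3 transcript of the Gencode M39 annotation, 44 of 1446 windows of 100 bases (3.04%) also occurred in Fcgr2b, and 0 of 1396 windows of 150 bases, the sequenced read length. Of the longer Fcgr2b transcript, 229 of 3304 windows of 100 bases (6.93%) occurred in another gene, 44 of them in Fcgr3, and 79 of 3254 windows of 150 bases (2.43%), in Aldh1a2 and Gm64270. The part of such reads in the level of Fcgr2b was not tested. None of the windows of 100 or 150 bases of Fcgr1, Fcgr4, Fcer1a, Fcer1g, Fcer2a and Fcgrt occurred in another gene. A lncRNA on the opposite strand, Gm38204, overlaps exons of Fcgr2b and had 3 to 18 counts a library, against 14992 to 52629 counts of Fcgr2b. The strand setting of the counting is not given in the sources used here.

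The 250 bases before the start of 3 activating receptor genes are shown next. Fcgr1 and Fcgr3 were called lower in matIMs. Fcgr4, which neighbours Fcgr3, also had lower means there but was not called in the main fit. In fits that allowed for the replicate number Fcgr4 was called lower in matIMs as well, as given below. Capitals mark matches, on either strand, to the interferon-stimulated element core GAAANNGAAA. The start is that of the canonical Gencode M39 transcript, which for Fcgr3 and Fcgr2b lies inside the span of the gene in the deposited table. The windows of Fcgr3 and Fcgr2b are therefore not those before the outermost start. The regions on GRCm39 are chr3:96201339-96201588 (minus strand) for Fcgr1, chr1:170887165-170887414 (minus strand) for Fcgr3 and chr1:170846216-170846465 (plus strand) for Fcgr4.

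Fcgr1: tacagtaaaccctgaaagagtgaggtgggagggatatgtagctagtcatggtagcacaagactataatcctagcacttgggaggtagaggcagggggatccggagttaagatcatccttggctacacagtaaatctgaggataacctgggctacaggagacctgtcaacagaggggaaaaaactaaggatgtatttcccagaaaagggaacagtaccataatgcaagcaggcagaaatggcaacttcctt

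Fcgr3: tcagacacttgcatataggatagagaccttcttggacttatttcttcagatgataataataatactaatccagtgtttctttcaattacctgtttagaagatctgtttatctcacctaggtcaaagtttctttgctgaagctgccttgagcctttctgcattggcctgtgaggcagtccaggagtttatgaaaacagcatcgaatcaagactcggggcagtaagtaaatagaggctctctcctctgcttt

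Fcgr4: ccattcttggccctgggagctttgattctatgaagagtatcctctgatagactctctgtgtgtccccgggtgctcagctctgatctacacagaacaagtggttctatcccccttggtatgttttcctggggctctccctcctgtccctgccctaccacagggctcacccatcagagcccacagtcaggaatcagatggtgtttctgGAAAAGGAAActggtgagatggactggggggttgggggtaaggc

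The Fcgr4 window held the interferon-stimulated core from 44 to 35 bases before the start, and the windows of the other 7 genes did not hold it. Among 14805 promoter windows of the same length, 3.31% held this core. The PU.1 core GAGGAA, held by 23.6% of windows, occurred at 2 places on the opposite strand of the Fcer1g window (80 to 75 and 55 to 50 bases before the start) and once in that of Fcer1a (231 to 226), and the STAT6 site TTCNNNNGAA, held by 5.28%, in none of the 8. These matches are a description of the letters and show no binding.

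The labelled populations were checked against their sorting markers. H2-Ab1, which encodes an MHC-II chain, had a mean level of 1348 CPM in moMs, 12585 in tnsIMs and 15360.5 in matIMs of WT mice, and Ly6c2, of the Ly6C locus, of 481, 219 and 51.2 CPM (n = 3; CPM are counts scaled to library size after TMM normalization). The targeted gene Ezr was lower in every Ezr-KOm library than in every WT library of its population, with log2 fold changes of -1.199 (adjusted p = 0.0549) in moMs, -1.62 (adjusted p = 0.00365) in tnsIMs and -2.29 (adjusted p = 7.73e-05) in matIMs (edgeR's quasi-likelihood test, Benjamini-Hochberg adjustment over 15811 genes), so that the lowering in moMs missed the threshold of 0.05. Dendritic cell markers moved with the populations: their summed level over 9 genes was 114 to 168 CPM in moMs, 202 to 440 in tnsIMs and 3353 to 4677 in matIMs of WT mice, and in the Ezr-KOm libraries 121 to 151, 274 to 416 and 4206 to 4603 CPM. Of the 9, 7 were called higher in matIMs than in moMs in WT (13.4% of all genes) and Ezr-KOm mice (12.5%). Among them were Ccr7, Fscn1, Zbtb46, Flt3 and Cd209a, and none of the 9 was at 0 in every library of a group. Between tnsIMs and moMs Flt3 was called lower in both genotypes (8.61% and 5.04% of all genes). Of the others, 3 were called higher there in WT and 4 in Ezr-KOm mice (13% and 9.23% of all genes). The part of such cells in the differences between populations was not tested, and in bulk samples fewer cells of a type and less RNA per cell cannot be told apart.

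In WT mice Fcgr1 and Fcgr3 were lower and Fcgrt higher in matIMs than in both other populations, Fcer2a was highest in tnsIMs, and none of the 8 genes was called between genotypes. All 8 genes passed the filter on low counts. Per kilobase of exon, the order of the mean levels in WT moMs was Fcer1g (1152 CPM per kb), Fcgr3 (416), Fcgr2b (146), Fcgr1 (71.8), Fcgr4 (56.1), Fcgrt (13.2), Fcer1a (0.211) and Fcer2a (0.158), with SDs of 128, 25.4, 14.4, 6.86, 10.98, 1.60, 0.330 and 0.0615. The lengths are of all exons merged, which understates genes with long alternative ends. The ranges of 1 SD around the means overlapped for Fcgr1 and Fcgr4, and for Fcer1a and Fcer2a. In WT matIMs the order from the top was Fcer1g (886 ± 184), Fcgr3 (178 ± 5.43), Fcgr2b (114 ± 16.7), Fcgr4 (35.1 ± 7.15), Fcgr1 (32.6 ± 2.59), Fcgrt (25.7 ± 0.328), Fcer2a (3.68 ± 0.943) and Fcer1a (0.170 ± 0.150) CPM per kb (SD, n = 3), and Fcgr4 and Fcgr1 did not differ beyond their spread.

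**Figure D1:**
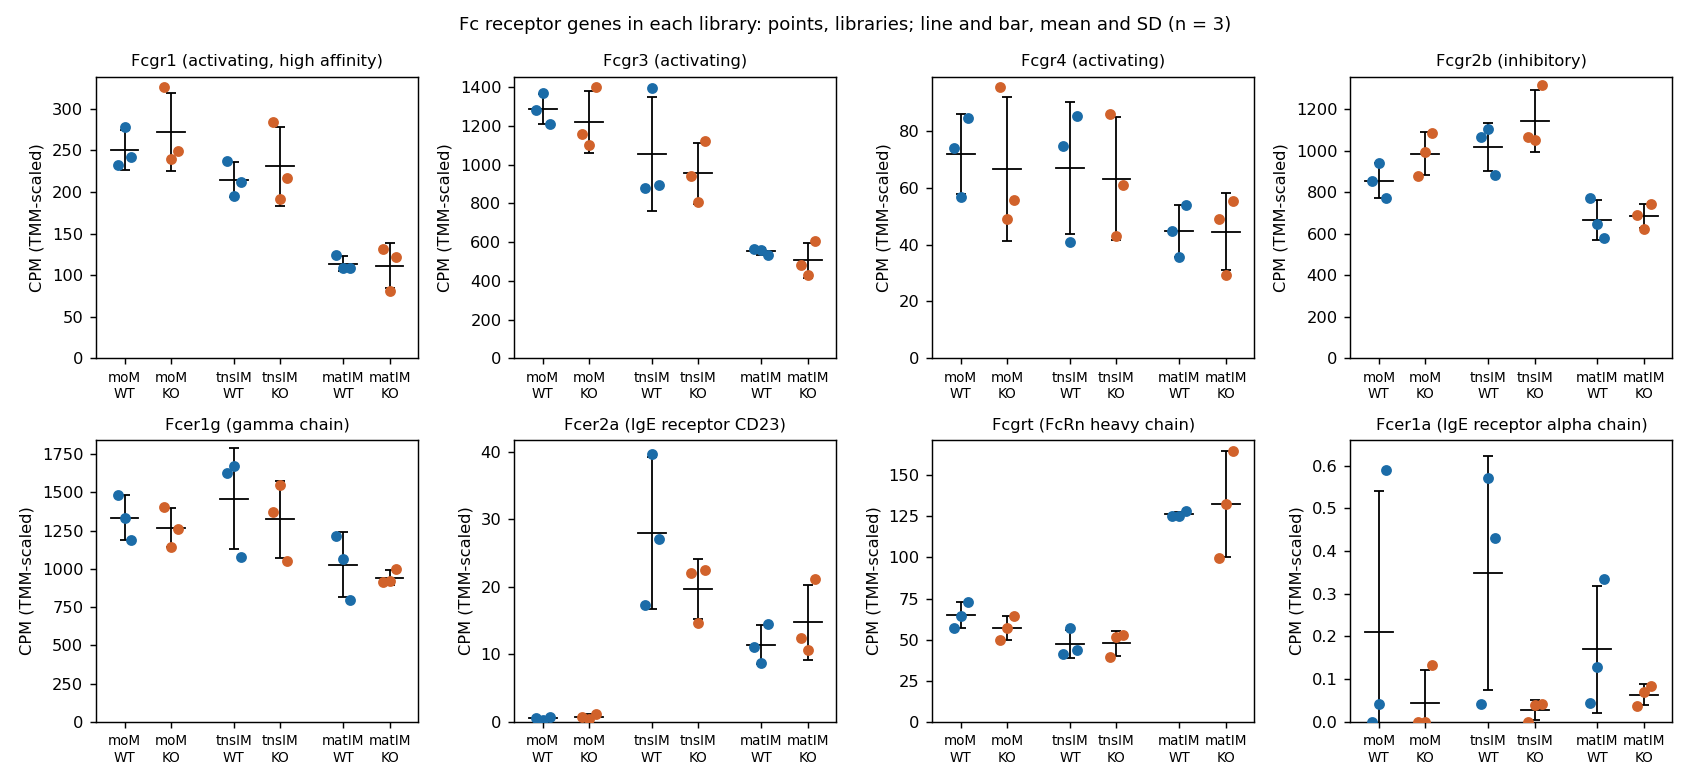
CPM of each Fc receptor gene in the 18 libraries (vertical axes, linear from 0, one scale per gene), by population and genotype (blue, WT; orange, Ezr-KOm), with the mean and SD of 3 libraries. Fcgr1 and Fcgr3 sit lowest in matIMs, Fcgrt sits highest there, Fcer2a is near 0 in moMs, and the WT and Ezr-KOm libraries overlap in every population for all 8 genes.

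The first question the design asks is how the sorted populations differ. Between WT matIMs and moMs, 4 of the 8 genes were called at an adjusted p under 0.05, 2 higher (Fcer2a and Fcgrt) and 2 lower (Fcgr1 and Fcgr3), where 13.4% of all tested genes were called higher and 11.4% lower. The median log2 fold change of the 8 was -0.37, against 0.01 over all tested genes. In Ezr-KOm mice the same comparison called 5 of the 8, Fcer2a and Fcgrt higher and Fcgr1, Fcgr2b and Fcgr3 lower (12.5% of all genes higher and 10.7% lower). Between WT tnsIMs and moMs only Fcer2a was called, higher (13% of all genes higher and 8.61% lower), as in Ezr-KOm mice (9.23% and 5.04%). Between WT matIMs and tnsIMs 1 gene was higher (Fcgrt) and 4 lower (Fcer2a, Fcgr1, Fcgr2b and Fcgr3; 8.32% and 10.2% of all genes), and in Ezr-KOm mice 1 higher (Fcgrt) and 3 lower (Fcgr1, Fcgr2b and Fcgr3; 8.37% and 9.85%). These comparisons share libraries, so a gene that stood apart in one population is counted in more than 1 of them.

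Among the activating receptors, Fcgr1, the high-affinity receptor that binds monomeric IgG, was at 232, 278 and 242 CPM in the moM libraries, 238, 195 and 212 in tnsIMs and 124, 108 and 109 in matIMs of WT mice. Every matIM library lay below every library of the other populations. Fcgr1 was 2.203-fold lower in WT matIMs than in moMs (95% interval 1.68 to 2.88, adjusted p = 0.000143) and 1.89-fold lower than in tnsIMs (1.44 to 2.47, adjusted p = 0.00135). Between tnsIMs and moMs the log2 fold change was -0.22 (-0.61 to 0.16, adjusted p = 0.422), which did not pass. The Ezr-KOm libraries held 326, 240.2 and 249.6 CPM in moMs, 284, 192 and 217 in tnsIMs and 131, 80.8 and 122 in matIMs, with matIMs again below all others. There Fcgr1 was 2.44-fold lower in matIMs than in moMs (1.87 to 3.20, adjusted p = 4.05e-05) and 2.07-fold lower than in tnsIMs (1.59 to 2.71, adjusted p = 0.000405).

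Fcgr3, the low-affinity activating receptor for immune complexes, had the highest counts of the activating receptors. In WT mice it was at 1283, 1369 and 1212 CPM in moMs, at 878, 1394 and 893 in tnsIMs and at 565, 557 and 533 in matIMs. The tnsIM libraries did not sit together: replicate 2, the library with the fewest counts, was level with moMs, and the others lay between moMs and matIMs. The 3 matIM libraries lay below all of these. Fcgr3 was 2.33-fold lower in WT matIMs than in moMs (1.79 to 3.05, adjusted p = 6.37e-05) and 1.91-fold lower than in tnsIMs (1.47 to 2.49, adjusted p = 0.00103). The difference between WT tnsIMs and moMs (log2 fold change -0.29, adjusted p = 0.279) did not pass, but without tnsIM replicate 2 it was -0.51 and did (adjusted p = 0.0405). In Ezr-KOm mice Fcgr3 was at 1159.7, 1100.4 and 1402 CPM in moMs, 939, 806 and 1119.9 in tnsIMs and 481, 429 and 607 in matIMs, and was 2.41-fold lower in matIMs than in moMs (1.85 to 3.15, adjusted p = 4.22e-05).

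Fcgr4, the activating receptor for IgG2a and IgG2b, was measured in WT mice at 73.8, 56.7 and 84.6 CPM in moMs, 74.8, 41.0 and 85.3 in tnsIMs and 44.8, 35.7 and 54.0 in matIMs. In Ezr-KOm mice it was at 95.5, 48.9 and 55.5 CPM, 85.8, 42.9 and 60.8 CPM, and 48.9, 29.4 and 55.3 CPM. Libraries of replicate 2 were the lowest in each of the 6 groups, and the populations overlapped except for WT matIMs and moMs. No population comparison of Fcgr4 passed in the fit without a replicate block: matIMs differed from moMs by a log2 fold change of -0.68 (-1.33 to -0.02, adjusted p = 0.131) in WT and -0.58 (-1.24 to 0.07, adjusted p = 0.208) in Ezr-KOm mice. The WT interval includes the size of the fall of Fcgr1 (log2 fold change -1.14) and Fcgr3 (-1.22), so a fall of that size is not excluded for Fcgr4 there, while the lower end of the Ezr-KOm interval lay just above their changes (-1.29 and -1.27).

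Fcgr2b, the inhibitory receptor, took another course: its mean was highest in tnsIMs. In WT mice its libraries held 854, 942 and 774 CPM in moMs, 1065, 1103 and 884 in tnsIMs and 773, 646 and 581 in matIMs. The matIM libraries lay below all tnsIM libraries, while 1 of them came within 1 CPM of the lowest moM library. Fcgr2b was 1.53-fold lower in WT matIMs than in tnsIMs (1.23 to 1.89, adjusted p = 0.00610), and neither the difference between matIMs and moMs (log2 fold change -0.36, adjusted p = 0.0848, which was 0.0335 without matIM replicate 1) nor that between tnsIMs and moMs (0.25, -0.06 to 0.56, adjusted p = 0.248) passed. In Ezr-KOm mice the values were 879.6, 995 and 1086 CPM in moMs, 1065, 1050 and 1317 in tnsIMs and 691, 625 and 742 in matIMs. There matIMs were 1.67-fold lower than tnsIMs (1.34 to 2.07, adjusted p = 0.00138) and 1.44-fold lower than moMs (1.16 to 1.78, adjusted p = 0.0137), the last of which was lost without moM replicate 3 (adjusted p = 0.0680) or matIM replicate 2 (adjusted p = 0.0682).

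The counts of Fcgr1, Fcgr3 and Fcgr4 were summed in each library and divided by the count of Fcgr2b, to set activating against inhibitory receptor RNA within a library. The counts were not divided by exon length, which is greatest for Fcgr2b, so a ratio of 1 is not equality of transcripts. The ratio was 1.86, 1.81 and 1.99 in WT moMs, 1.12, 1.48 and 1.35 in WT tnsIMs and 0.949, 1.09 and 1.197 in WT matIMs, and 1.80, 1.40 and 1.57, then 1.23, 0.991 and 1.06, then 0.957, 0.863 and 1.06 in the Ezr-KOm libraries. All moM libraries of a genotype lay above all its tnsIM and matIM libraries. Permuting the population labels within each genotype, the ratio was lower by 0.53 on the log2 scale in tnsIMs than in moMs (two-sided exact permutation p = 0.005, the smallest that this permutation can give, adjusted p = 0.0075 over 3 comparisons). Between matIMs and moMs it differed by -0.77 (exact permutation p = 0.005, adjusted p = 0.0075), and between matIMs and tnsIMs by -0.24 (exact permutation p = 0.04, adjusted p = 0.04). The last of these was lost per exon length (adjusted p = 0.065) and without any 1 of WT tnsIM replicates 2 and 3, Ezr-KOm tnsIM replicates 1 and 3, or matIM replicates 1 and 2 of either genotype (difference -0.25 to -0.19). Fcgr3 takes most of the sum, and the ratio of Fcgr3 alone to Fcgr2b fell by 0.57 on the log2 scale from moMs to tnsIMs and by 0.81 from moMs to matIMs. A ratio within a library shows that the genes changed unequally, not which of them changed. The permutations treated the libraries of a genotype as independent, while same-numbered libraries of different populations correlated, as given below.

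**Figure D2:**
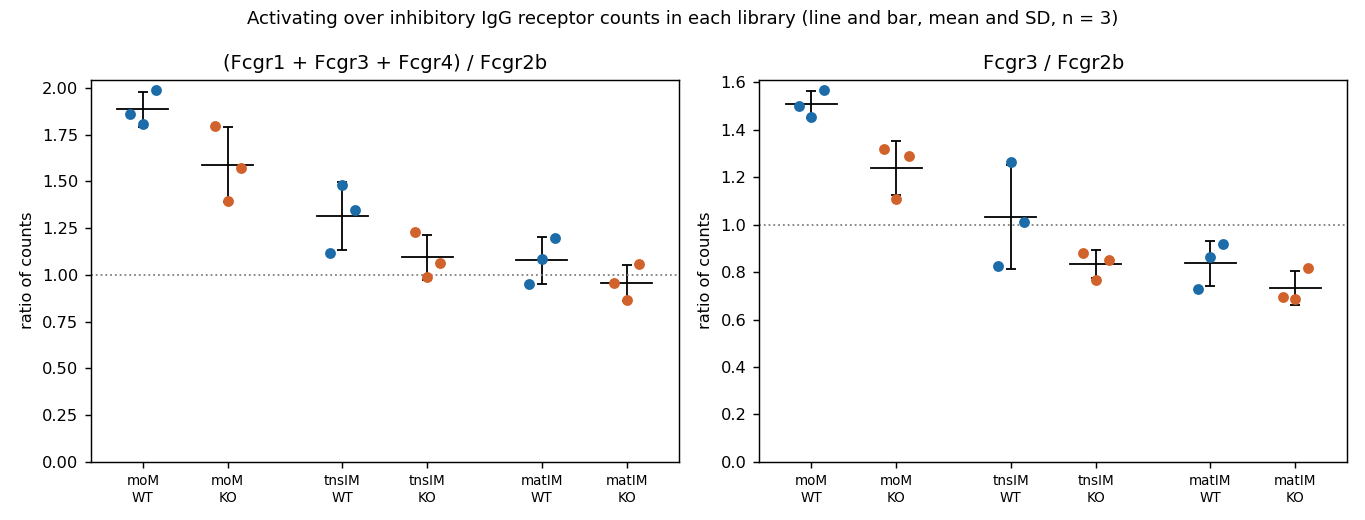
Ratio of activating to inhibitory IgG receptor counts in each library (vertical axes, linear from 0), for Fcgr1, Fcgr3 and Fcgr4 together (left) and Fcgr3 alone (right), with the mean and SD of 3 libraries and a dotted line at 1. Counts are not divided by exon length, so the line does not mark equal numbers of transcripts. Left, WT moM libraries lie between 1.81 and 1.99 and WT matIM libraries between 0.949 and 1.197.

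Fcer1g, the gamma chain that the activating receptors need for surface display and signalling, had the highest level per length of the 8. WT mice had 1486, 1332 and 1188 CPM in moMs, 1630.3, 1670.0 and 1079 in tnsIMs and 1216, 1068 and 796 in matIMs. In Ezr-KOm mice it was at 1402, 1144 and 1264 CPM, 1370.2, 1552 and 1053 CPM, and 913, 920.5 and 997 CPM. The matIM libraries were the lowest on average, but in WT mice they overlapped those of the other populations, whereas in Ezr-KOm mice they lay below all of them. No comparison passed in the fit without a replicate block: between matIMs and tnsIMs the log2 fold change was -0.51 (adjusted p = 0.0692) in WT and -0.49 (adjusted p = 0.0815) in Ezr-KOm mice, and between matIMs and moMs -0.38 (adjusted p = 0.158) and -0.43 (adjusted p = 0.112). The comparison of WT matIMs with tnsIMs passed without WT tnsIM replicate 3 (adjusted p = 0.0116), Ezr-KOm tnsIM replicate 3 (adjusted p = 0.0486) or WT matIM replicate 1 (adjusted p = 0.0395), and that in Ezr-KOm mice without tnsIM replicate 3 of WT (adjusted p = 0.0396) or Ezr-KOm mice (adjusted p = 0.0258). Tyrobp, an ITAM adaptor related to the gamma chain, fell between moMs and matIMs by 0.67 on the log2 scale in WT (adjusted p = 0.00803) and by 0.88 in Ezr-KOm mice (adjusted p = 0.0009996). Ms4a2, the beta chain of the high-affinity IgE receptor, did not pass the filter on low counts.

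The low-affinity IgE receptor Fcer2a (CD23) showed the largest fold changes of the 8. WT moMs held 9, 7 and 17 counts (0.512, 0.290 and 0.669 CPM) and Ezr-KOm moMs 17, 9 and 25 counts (0.739, 0.347 and 1.10 CPM). WT tnsIMs were at 17.3, 39.7 and 27.1 CPM, Ezr-KOm tnsIMs at 22.1, 14.6 and 22.4 CPM, WT matIMs at 11.1, 8.63 and 14.5 CPM and Ezr-KOm matIMs at 12.4, 10.6 and 21.1 CPM. Every tnsIM and matIM library thus lay above every moM library. Fcer2a was 56.3-fold higher in WT tnsIMs than in moMs (29.2 to 109, adjusted p = 1.30e-07) and 27.1-fold higher in Ezr-KOm tnsIMs (14.6 to 50.3, adjusted p = 8.29e-07). In matIMs it was 23.0-fold (12.1 to 43.9, adjusted p = 4.28e-07) and 20.3-fold (10.99 to 37.4, adjusted p = 3.47e-07) above moMs in WT and Ezr-KOm mice. From tnsIMs to matIMs it fell 2.45-fold in WT mice (1.497 to 4.002, adjusted p = 0.0103), a call that was lost without tnsIM replicate 2 (adjusted p = 0.0633) or matIM replicate 2 (adjusted p = 0.0526), while in Ezr-KOm mice the log2 fold change was -0.42 (-1.12 to 0.28, adjusted p = 0.471). The difference between these 2 changes did not pass its own test (0.87 on the log2 scale, -0.12 to 1.86, unadjusted p = 0.0807, adjusted p = 1).

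B cells, the usual CD23-bearing cells, were followed by 5 marker genes. Their summed level was 8.25 to 12.5 CPM in moMs, 30.1 to 42.7 in tnsIMs and 113 to 160.4 in matIMs of WT mice, and 7.87 to 11.02, 27.4 to 69.7 and 60.8 to 158 CPM in Ezr-KOm mice. All 5 were called higher in matIMs than in moMs in WT (13.4% of all genes) and Ezr-KOm mice (12.5%). Between WT tnsIMs and matIMs 4 of 5 (Cd79a, Cd79b, Ms4a1 and Pax5) rose while Fcer2a fell (8.32% of all genes higher and 10.2% lower). In Ezr-KOm mice only 2 of 5 (Cd79a and Cd79b) were called higher there (8.37% of all genes), and Fcer2a was not called. In moMs Pax5 was at 0 in the 3 Ezr-KOm libraries and Cr2 in the 3 WT libraries. Dendritic cell markers rose mainly from tnsIMs to matIMs, as given above. The list of 7 measured mast cell and basophil genes was, in sum, highest in tnsIMs, as Fcer2a was. Its sum was 64.3 to 102 CPM in moMs, 158 to 245 in tnsIMs and 105 to 141 in matIMs of WT mice, and 75.6 to 104, 159 to 251 and 120.3 to 123 CPM in Ezr-KOm mice. Of its 4 tested genes, Kit, Gata2 and Hdc were called higher in tnsIMs than in moMs in WT (13% of all genes) and Ezr-KOm mice (9.23%). Gata2 and Hdc were called lower in matIMs than in tnsIMs in both genotypes (10.2% and 9.85% of all genes). Kit did not fall: it was called higher in Ezr-KOm matIMs than in tnsIMs (8.37% of all genes) and was not called in WT mice. There it held 538 to 1379 counts in tnsIMs and 974 to 2020 in matIMs. Hdc held 1142 to 5339 counts, Kit 262 to 2020 and Gata2 32 to 1019 counts a library. The part of any of these cells in the level of Fcer2a was not tested.

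**Figure D3:**
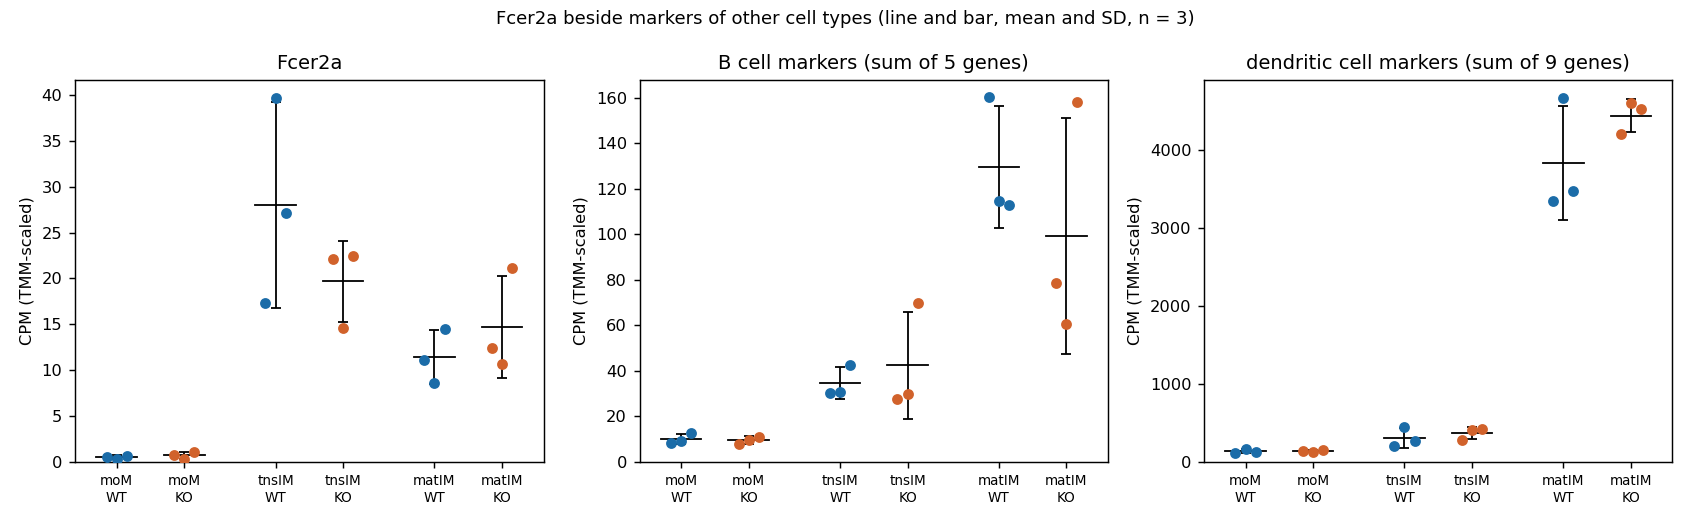
CPM in each library of Fcer2a (left), of 5 B cell markers summed (middle) and of 9 dendritic cell markers summed (right), on linear axes from 0, with the mean and SD of 3 libraries. Fcer2a has its highest mean in tnsIMs of both genotypes, whereas both marker sums are highest in matIMs.

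Fcer1a, the IgE-binding chain of the high-affinity receptor, was near the limit of detection. WT libraries held 0, 1 and 15 counts in moMs, 1, 9 and 11 counts in tnsIMs and 1, 3 and 9 counts in matIMs, and Ezr-KOm libraries 0, 0 and 3, then 0, 2 and 1, then 1, 2 and 2 counts. All Ezr-KOm libraries were thus at or under 3 counts, the number that a count of 0 allows. In tnsIMs the summed counts were 3 in Ezr-KOm and 21 in WT libraries, a depth-scaled ratio of 0.0953 (exact 95% interval for counting error only, 0.0182 to 0.319), and in moMs 3 and 16 (ratio 0.176, 0.0328 to 0.614), of which replicate 3 held 15 in WT mice and all 3 in Ezr-KOm mice. In matIMs they were 5 and 13, with a ratio of 0.346 whose interval included 1 (0.0967 to 1.04). Of the mast cell and basophil list described above, the genes Ms4a2, Mcpt8, Cpa3 and Cma1 held 0 to 26 counts in any library, while Kit, Gata2 and Hdc were abundant. The part of such cells in the level of Fcer1a was not tested.

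Fcgrt, the heavy chain of FcRn, was the only gene for an IgG receptor that was called higher in matIMs. In WT mice it was at 57.1, 64.4 and 72.8 CPM in moMs, 41.0, 56.8 and 43.9 in tnsIMs and 125, 125 and 128 in matIMs. The matIM libraries lay above all others, and the 3 tnsIM libraries below all moM libraries. Fcgrt was 1.95-fold higher in WT matIMs than in moMs (1.498 to 2.53, adjusted p = 0.000563) and 2.67-fold higher than in tnsIMs (2.05 to 3.49, adjusted p = 1.58e-05), and the log2 fold change between tnsIMs and moMs was -0.46 (-0.84 to -0.08, adjusted p = 0.0782), which did not pass, though without tnsIM replicate 2 it did (-0.59, adjusted p = 0.0364). In Ezr-KOm mice it was at 49.7, 56.8 and 64.5 CPM in moMs, 39.1, 51.8 and 52.6 in tnsIMs and 99.96, 133 and 165 in matIMs, 2.32-fold higher in matIMs than in moMs (1.79 to 3.02, adjusted p = 5.90e-05) and 2.77-fold higher than in tnsIMs (2.12 to 3.61, adjusted p = 1.16e-05). B2m, the light chain that FcRn shares with MHC class I, was at 2298 ± 249 CPM in WT moMs and 2467 ± 423 CPM in WT matIMs (SD, n = 3), with a log2 fold change of 0.10 (-0.30 to 0.50, adjusted p = 0.751).

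**Figure D4:**
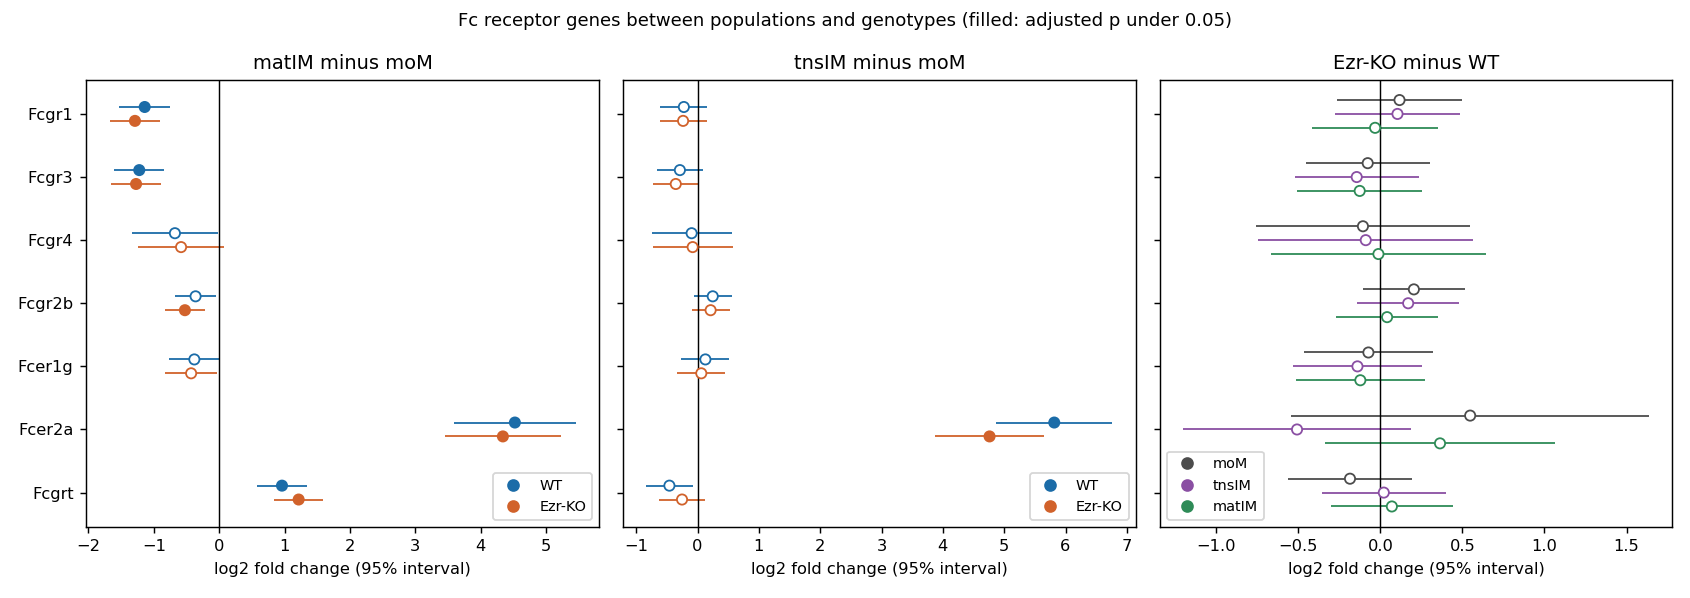
Log2 fold changes (horizontal axes) with 95% intervals for 7 Fc receptor genes between matIMs and moMs (left), tnsIMs and moMs (middle) and Ezr-KOm and WT mice (right). Filled points passed an adjusted p under 0.05. Fcer1a is left out because its counts were near 0. All points of the right panel are open and their intervals include 0.

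The second question is whether loss of ezrin changed these receptors. None of the 8 genes was called between Ezr-KOm and WT mice in moMs (0.171% of all genes), tnsIMs (0.164%) or matIMs (0.152%) in edgeR's test, and DESeq2 also called 0. At an unadjusted p under 0.05 the numbers were 0, 1 and 0. The 1 gene was Fcer1a in tnsIMs (edgeR log2 fold change -3.30, unadjusted p of 0.0201, adjusted p = 1), on the 3 and 21 counts given above. By the rule of the study, an unadjusted p under 0.05 with a log2 fold change over 0.75, it was also the only member, where 2.51%, 1.83% and 2.4% of all genes met that rule in moMs, tnsIMs and matIMs.

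The intervals come from the fit without a replicate block and show what size of change that fit leaves possible. Same-numbered libraries correlated between genotypes, as given below, and these intervals do not take that into account. For Fcgr1 the log2 fold change between Ezr-KOm and WT mice was 0.12 (-0.27 to 0.50) in moMs, 0.10 (-0.28 to 0.49) in tnsIMs and -0.03 (-0.42 to 0.35) in matIMs. For Fcgr3 it was -0.08 (-0.46 to 0.30), -0.14 (-0.52 to 0.23) and -0.13 (-0.51 to 0.25), and for Fcgr2b 0.20 (-0.10 to 0.51), 0.17 (-0.14 to 0.48) and 0.04 (-0.27 to 0.35). Fcgr4 was the least certain of the IgG receptors, with -0.11 (-0.76 to 0.55), -0.09 (-0.74 to 0.56) and -0.01 (-0.67 to 0.64). The gamma chain Fcer1g changed by -0.07 (-0.46 to 0.32), -0.14 (-0.53 to 0.25) and -0.12 (-0.51 to 0.27), none of which passed. Fcgrt differed by -0.19 (-0.56 to 0.19), 0.02 (-0.36 to 0.40) and 0.07 (-0.30 to 0.44), and Fcer2a by 0.55 (-0.54 to 1.64), -0.51 (-1.20 to 0.19) and 0.36 (-0.34 to 1.07). The ratio of activating to inhibitory counts was lower on average in Ezr-KOm than in WT mice, by 0.25 on the log2 scale in moMs (exact permutation p = 0.1), 0.26 in tnsIMs (exact permutation p = 0.2) and 0.17 in matIMs (exact permutation p = 0.3), with an adjusted p = 0.3 for each. In moMs each Ezr-KOm library lay below each WT library. With 3 libraries against 3 the smallest exact permutation p is 0.1, so no such difference could pass. These permutations did not pair libraries by replicate number. For none of the 8 genes did a difference in the effect of genotype between populations pass edgeR's test (0% of all genes in each of the 3 comparisons), and none had an unadjusted p under 0.05. Some intervals were wide, such as -1.05 (-2.35 to 0.24) for Fcer2a between tnsIMs and moMs. For Fcgr4 the value was 0.09 (-0.83 to 1.02) between matIMs and moMs.

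The signalling genes behind the receptors were taken from fixed lists. Of 23 genes of activating signalling, 3 were higher and 7 lower in WT matIMs than in moMs (13.4% and 11.4% of all genes), and 3 higher and 8 lower in Ezr-KOm mice (12.5% and 10.7% of all genes). The WT group had a median log2 fold change of -0.21, against 0.01 over all genes. Syk, the kinase recruited by the gamma chain, fell by 0.52 on the log2 scale (adjusted p = 0.0167) in WT and by 0.54 (adjusted p = 0.0141) in Ezr-KOm mice. The other genes that fell in WT were Lcp2 (an adaptor, by 0.88), Pik3cd (a PI3-kinase subunit, by 0.95), Lyn (a Src-family kinase, by 0.76), Plcg2 (a phospholipase, by 0.57), Vav3 and Was. Src, Pik3r1 and Grb2 rose, by log2 fold changes of 1.24, 1.13 and 0.36. Between tnsIMs and moMs 8 of the 23 were lower and 2 higher (Src and Plcg1) in WT mice (8.61% and 13% of all genes), and 4 lower and 1 higher in Ezr-KOm mice (5.04% and 9.23% of all genes).

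Of 10 genes of inhibitory signalling, 1 was higher and 3 lower in WT matIMs than in moMs (13.4% and 11.4% of all genes), and 1 higher and 4 lower in Ezr-KOm mice (12.5% and 10.7%). In WT mice Dok3, an adaptor that restrains immunoreceptor signalling, fell by 1.69 on the log2 scale, Cbl, a ubiquitin ligase, by 0.90 and Inpp5d, the SHIP1 phosphatase that Fcgr2b recruits, by 0.39 (adjusted p = 0.0344), while Dok1 rose by 1.27. Ptpn6, the SHP-1 phosphatase, had a log2 fold change of -0.37 (adjusted p = 0.0685) in WT and fell by 0.44 (adjusted p = 0.0316) in Ezr-KOm mice. Between genotypes 0 of the 23 activating and 0 of the 10 inhibitory genes were called in any population in edgeR's test or by DESeq2. At an unadjusted p under 0.05 the only one was Dok2 in tnsIMs.

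The genes whose 6 group means followed those of a receptor most closely were found by the root mean square difference of centred log2 CPM, over the receptors whose means spanned more than 1 on that scale. For Fcgr3 they were Rnf217 (0.0274), Il10 (0.0666) and Gas7 (0.0690), for Fcgr1 Ets2 (0.0434), Cdc42ep4 (0.0478) and Osm (0.0558), and for Fcgrt Dapp1 (0.0686), Cnn2 (0.0698) and Kif22 (0.0847). No gene came as close to Fcer2a: the nearest were Scd1 (0.556), Clu (0.608) and Epcam (0.627). In WT mice Scd1 averaged 2.60 CPM in moMs, 157 in tnsIMs and 32.4 in matIMs. Fcer1a, near the floor, had Zfp46, Synj2 and Gm16046 as its nearest. The likeness rests on 6 group means of the same 18 libraries and is a description.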

How the data were processed

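The authors sorted the cells by flow cytometry after FcBlock, made cDNA with SMART-Seq v4 from RNA with a RIN of at least 8, sequenced 150-base read pairs, and aligned them to GRCm39 with STAR 2.7.9a and Gencode M29. The deposited table holds raw counts per gene for 18 libraries, whose methods name 3 mice per genotype. All columns match a label. Totals of 16512783 to 48460995 counts limit precision for Fcer1a, and for Fcer2a in moMs. The 8 members and the gene lists were chosen with earlier results of these data known.

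Counts were fitted with edgeR 4.0.16 (R 4.3.3) in 1 quasi-likelihood model of 6 groups after TMM scaling and filterByExpr (minimum count 10), which kept 15811 of 21254 genes, with Benjamini-Hochberg adjustment over all of them. The script was tested on simulated data. Alternatives were DESeq2 1.42.0, other scalings and filters, replicate blocks and leaving out libraries. Ratios were compared by two-sided exact permutation. Genes named from the lists were those with the smallest p between WT matIMs and moMs, up to 3 in each direction, with Syk, Inpp5d, Ptpn6, B2m, Tyrobp and Ms4a2 in any case. Further called genes of a list (Plcg2, Syk, Vav3, Was, Plcg1) and the dendritic, B cell and mast cell markers named in the text complete a count and were chosen after their values were seen. A B cell marker and a promoter motif are not reported here.

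Replicate numbers were checked for pairing: deviations from the group means of same-numbered libraries correlated at 0.102 to 0.316 between genotypes (9 pairs), against at most 0.0508 for different numbers. This is a hint from the data that the numbers pair the genotypes, which the labels do not state. Replicates of a group differed by more than sampling noise. Sequences were read from the GRCm39 genome with the Gencode M39 annotation, whose ends differ from the table for 7 of 8 genes.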

Additional observations from a re-analysis of the deposited data

How the results depend on the processing

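Fcer1a and moM Fcer2a were limited by their counts. The number of Fc receptor genes called between genotypes was 0 under DESeq2, library totals only, upper-quartile factors, no filter, at least 10 counts in every library, the replicate block and fits of only the groups compared. Between populations the calls summed over 3 comparisons were 10 in WT and 10 in Ezr-KOm mice, and 7 to 11 and 8 to 10 under the same alternatives without a block.

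Same-numbered libraries of different populations of a genotype correlated at 0.0905 to 0.397 (18 pairs), against at most 0.0316 for different numbers, so each correlated best with its own number, a hint from the data and not the design. With the replicate block the calls between populations were 14 in WT and 13 in Ezr-KOm mice, and with the replicate block by mouse 16 and 15. The calls gained with the replicate block (edgeR, Benjamini-Hochberg) were lower Fcgr4 in WT matIMs than in tnsIMs (adjusted p = 0.0405) and moMs (0.00810) and in Ezr-KOm matIMs than in moMs (0.0194), lower Fcer1g in WT (0.0187) and Ezr-KOm matIMs (0.0299) than in tnsIMs and in Ezr-KOm matIMs than in moMs (0.0415), and lower Fcgrt in WT tnsIMs than in moMs (0.0164). The block by mouse added Fcgr2b between WT matIMs and moMs, Fcgr3 between Ezr-KOm tnsIMs and moMs, Fcgr4 between Ezr-KOm matIMs and tnsIMs and Fcer1g between WT matIMs and moMs. The replicate block changed no call between genotypes.

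The log2 fold change of Fcgr4 between genotypes in matIMs turned from -0.01 to 0.00176 with library totals only, 0.0106 with upper-quartile factors, 0.000439 with at least 10 counts in every library and 0.0040 with only the groups compared, and that between Ezr-KOm tnsIMs and moMs (-0.08) turned to 0.0117 and 0.00626 with the first 2 of these. The activating to inhibitory difference with Fcgr4 alone was -0.34 between tnsIMs and moMs, 0.16 between matIMs and tnsIMs and -0.18 between matIMs and moMs, none past the threshold. Between matIMs and tnsIMs it missed the threshold per length (-0.21), with Fcgr1 alone (-0.32) and with Fcgr3 alone (-0.24), and without 1 library it ranged from -0.29 to -0.19. The cause was not tested.

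Small differences between genotypes changed direction with single libraries left out. The log2 fold changes ranged over -0.0513 to 0.20, -0.0879 to 0.22 and -0.17 to 0.15 for Fcgr1 in moMs, tnsIMs and matIMs, -0.48 to 0.0815, -0.39 to 0.13 and -0.18 to 0.21 for Fcgr4, and -0.17 to 0.00577, -0.32 to 0.0287 and -0.28 to 0.0335 for Fcer1g. For Fcgr2b in matIMs the range was -0.0538 to 0.18, for Fcgr3 in tnsIMs -0.26 to 0.11, for Fcgrt in tnsIMs -0.0499 to 0.17 and in matIMs -0.11 to 0.24, and for Fcer1a in moMs -5.54 to 0.73. Between tnsIMs and moMs Fcgr4 ranged over -0.28 to 0.18 in WT and -0.38 to 0.32 in Ezr-KOm mice, Fcer1g over -0.0687 to 0.24 and Fcer1a over -1.02 to 2.83 in Ezr-KOm mice. Between matIMs and moMs Fcer1a ranged over -1.33 to 2.61 in WT and -0.10 to 3.76 in Ezr-KOm mice. No call between populations changed direction.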

Other observations

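Other receptors of the immunoglobulin-binding family were compared between the populations. Of 8 measured Fc receptor-like and related genes, 5 were higher and 0 lower in WT matIMs than in moMs (13.4% and 11.4% of all genes), and 5 higher and 1 lower (Fcrlb, named because it completes the count) in Ezr-KOm mice (12.5% and 10.7% of all genes). Fcrla, an intracellular B cell protein, averaged 0.501 CPM in moMs, 4.11 in tnsIMs and 7.79 in matIMs of WT mice (n = 3), and Fcmr, the IgM receptor, 0.237, 5.18 and 15.2 CPM. Both rose with the B cell markers, whose part in this was not tested. Fcrls, a soluble receptor-like protein of macrophages, was at 5.67, 6.19 and 14.7 CPM. Pigr, the epithelial carrier of polymeric IgA and IgM, was in WT mice highest in tnsIMs, as Fcer2a was, at a mean of 0.149 CPM in moMs, 11.2 in tnsIMs and 1.22 in matIMs. Its fall from tnsIMs to matIMs was steeper than that of Fcer2a.

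RNA of the ligands was also read. The summed level of 5 IgG and IgE heavy chain genes was 0 to 3.93 CPM in moMs, 3.84 to 20.1 in tnsIMs and 54.0 to 116 in matIMs of WT mice. In the 3 Ezr-KOm moM libraries all 5 were at 0, which allows up to 0.132 CPM for a gene at these depths, and in Ezr-KOm tnsIMs and matIMs the sums were 17.2 to 28.1 and 38.7 to 167 CPM. Ighe, the IgE heavy chain, was at 0 in the 6 moM and the 6 tnsIM libraries. Between genotypes edgeR called 0 of the heavy chain genes in each population, with 1 at an unadjusted p under 0.05 in each (Ighg1 in moMs, Ighg3 in tnsIMs and matIMs), and DESeq2 called 1, in matIMs.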
